A study of Homo sapiens with 6 samples.

Results

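The transcripts of the mitochondrial genome were examined in LX-2, a human cell line derived from hepatic stellate cells, the collagen-producing cells of the fibrotic liver. Members were taken as the rows of the gene count table whose Ensembl identifiers lie on chromosome M in GENCODE release 44, and 15 of the 32750 rows met that rule: 2 rRNAs, 12 heavy-strand mRNAs and MT-ND6. None of the 22 tRNA genes of that annotation had a row, so tRNAs were not analysed here. The study set 3 libraries from cells labelled as transfected with an siRNA against ATP6AP1 (genotype label: ATP6AP1 transient knockdown) against 3 libraries from cells given a non-targeting negative control siRNA (genotype label: wild type). ATP6AP1 encodes an accessory subunit of the V-ATPase, the pump that acidifies lysosomes, and the comparison asks how its depletion alters transcription. The series title calls the cells activated, but no activating agent, siRNA sequence or time after transfection is given in the sources used here. RNA in all libraries was selected on oligo(dT) beads.

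The mitochondrial genome is a small circle transcribed from both strands into long precursors, which are cut at the tRNAs that punctuate them. The heavy-strand precursor holds both rRNAs and every mRNA but MT-ND6, and the light-strand precursor holds MT-ND6. The mRNAs encode membrane subunits of respiratory complexes I, III and IV and of ATP synthase (complex V), which nuclear-encoded subunits complete. Human mitochondrial mRNAs carry poly(A) tails, the rRNAs carry short adenylate tails, and MT-ND6 is known as the mRNA that lacks a stable tail, while oligo(dT) beads hold RNA by its tail.

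Both rRNAs and MT-ND6 were higher in the ATP6AP1 siRNA-labelled libraries, whereas no heavy-strand mRNA rose. Between the rRNA genes and the first heavy-strand mRNA lies the gene of the leucine tRNA MT-TL1, which also holds the site bound by the transcription terminator MTERF1. On one side of that boundary lies a transcript that rose, and on the other lie mRNAs that did not. Transcription termination was not measured, and its part in this difference was not tested. The boundary is shown from the last 10 bases of MT-RNR2 to the start of MT-ND1 (GRCh38, chrM:3220-3318, plus strand), with MT-TL1 in capitals.
rRNA to mRNA boundary: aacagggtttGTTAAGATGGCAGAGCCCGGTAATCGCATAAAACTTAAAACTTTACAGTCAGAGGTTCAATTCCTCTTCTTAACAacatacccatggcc

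Tailing also shapes the mRNAs themselves. In the annotation, 6 of the 13 mRNAs end in T or TA, part of a stop codon that the tail completes. MT-ATP6 is annotated with a whole stop codon, but its last base (chrM:9207) is also the first base of MT-CO3. The last 15 annotated bases of 4 mRNA genes are shown in the sense of each RNA. Capitals mark the stop codon or the part of it that the genome encodes. These are gene ends of the annotation, and the ends of the RNAs themselves were not measured. MT-ND3 had the largest decrease among the members, MT-ND4 also fell, and MT-ND5 and MT-ND6 are neighbours whose annotated 3′ ends meet from opposite strands.
MT-ND3 (chrM:10390-10404, plus strand): tagactgaaccgaaT
MT-ND4 (chrM:12123-12137, plus strand): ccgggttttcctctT
MT-ND5 (chrM:14134-14148, plus strand): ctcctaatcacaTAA
MT-ND6 (chrM:14149-14163, minus strand): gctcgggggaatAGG

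Total counts per library were 15644464 to 17880546 in the ATP6AP1 siRNA-labelled libraries and 17700222 to 19656533 in the control libraries. The siRNA target went against its label. ATP6AP1 stood at 144, 146 and 140 CPM (counts per 1000000 counts of the normalised library) in the labelled libraries, against 116, 117 and 129 CPM in controls, a log2 fold change of 0.25 (SE 0.0608, edgeR adjusted p = 0.00425). Every direction here is therefore that of libraries bearing a label and not of a measured depletion. Of 10 stellate cell markers, 8 reached 1 CPM in every library, while LUM and DES stayed under 1 CPM in all. Of 16 markers of hepatocytes, leukocytes, endothelium and cholangiocytes, 12 stayed under 1 CPM in every library. Albumin (ALB) was among them at no more than 0.121 CPM. The others reached 1 CPM in every library. They were CD68 at 54.9 to 68.7, SERPINA1 at 4.47 to 8.72, KRT7 at 3.98 to 6.91 and KDR at 2.20 to 8.09 CPM.

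Genes were tested with edgeR's quasi-likelihood test across the whole table, with Benjamini-Hochberg adjustment and a threshold of 0.05. Of the 15 mitochondrial genes, 8 passed, 3 higher and 5 lower, where 53.3% of the 15372 genes tested passed (26.7% higher and 26.6% lower). The share called is thus that of the background, and what stood out was the order of the members: the 3 that rose were both rRNAs and MT-ND6. In 9 members no labelled library overlapped a control library, 3 with all labelled libraries higher and 6 with all lower. Such separation was found in 59.5% of all genes tested (29.8% higher and 29.7% lower). Over the 12 heavy-strand mRNAs the median log2 fold change was -0.13, against -0.0043 over all genes tested. Bulk RNA does not separate fewer mitochondrial genomes per cell from less RNA per genome, nor fewer cells of a type from less RNA per cell.

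**Figure D1:**
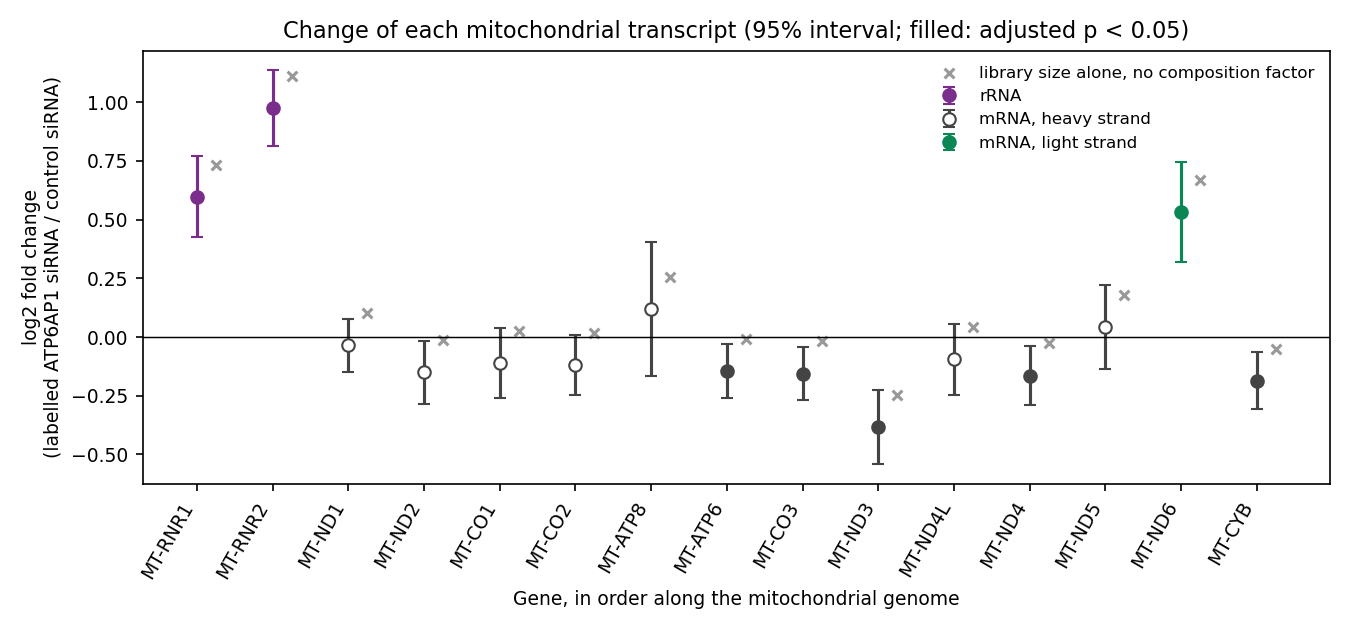
log2 fold change of each mitochondrial transcript, ATP6AP1 siRNA-labelled over control libraries, in gene order along the mitochondrial genome; points are edgeR estimates with 95% confidence intervals, filled where the adjusted p passed 0.05, and grey crosses give the estimate scaled by library size alone. MT-RNR1, MT-RNR2 and MT-ND6 sit at 0.60, 0.97 and 0.53, while the heavy-strand mRNAs lie between -0.38 and 0.12.

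MT-RNR2 (ENSG00000210082, chromosome M, 1671 to 3229), the rRNA of the large mitochondrial ribosomal subunit, stood at 1921, 2378 and 2319 CPM in the ATP6AP1 siRNA-labelled libraries. In the control libraries it stood at 1163, 1098 and 1106 CPM. All 3 labelled libraries were above all controls, with replicate 1 the lowest of the labelled ones. The labelled libraries averaged 2206 ± 249 CPM and the controls 1123 ± 35.3 CPM (SD, n = 3 each), a 1.96-fold rise with a 95% confidence interval from 1.76 to 2.20 (log2 fold change 0.97, SE 0.0745, edgeR adjusted p = 3.23e-07). Of all genes tested, 4.77% had a higher log2 fold change.

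MT-RNR1 (ENSG00000211459, chromosome M, 648 to 1601), the rRNA of the small subunit, stood at 579, 664 and 742 CPM in the labelled libraries, against 455, 441 and 415 CPM in controls. The groups again did not overlap. The rise was 1.51-fold, with a 95% confidence interval from 1.34 to 1.70 (log2 fold change 0.60, SE 0.0795, edgeR adjusted p = 3.74e-05). Per length, MT-RNR2 stood at 1415 ± 159 and MT-RNR1 at 693 ± 85.3 CPM per kb in the labelled libraries, and at 720.1 ± 22.6 and 458 ± 21.5 CPM per kb in controls (SD, n = 3 each). The genes lie side by side on the same precursor with only the valine tRNA gene between them.

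The rRNAs made up 19.0, 20.5 and 21.0% of mitochondrial counts in the labelled libraries, against 11.3, 11.3 and 11.1% in controls. Set against the summed heavy-strand mRNAs of the same library, a ratio that no scaling between libraries can alter, the rRNAs stood at 0.236, 0.260 and 0.268 in the labelled libraries and at 0.128, 0.128 and 0.126 in controls. The controls were nearly equal, and the labelled libraries lay well above them with a wider spread. The mean ratio was 2.00-fold higher in the labelled libraries, and between 1.95-fold and 2.08-fold higher with any replicate left out.

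RNAs that lack poly(A) tails were looked at beside this result, since oligo(dT) beads select on the tail. RN7SL2 and RN7SL1, the near-identical RNA genes of the signal recognition particle, whose reads can be split between copies and which are uncertain for that reason, both rose, with log2 fold changes of 0.41 and 0.32 (edgeR adjusted p = 0.00983 and 0.0485). With ATP6AP1 siRNA-labelled replicate 3 or any control replicate left out, or with limma-voom, 1 gene of the list passed in place of 2. RN7SK, a regulator of transcription elongation, had 0.48 and did not pass (edgeR adjusted p = 0.137). The summed level of the 7 genes of that list in the table was 83.7, 88.0 and 120 CPM in the labelled libraries and 79.6, 72.7 and 71.5 CPM in controls, with RMRP and RPPH1 near 0. Replication-dependent histone mRNAs end in a stem-loop, but the counts do not show whether the histone RNAs captured here had tails. The 13 histone genes listed summed to 77.0, 77.6 and 74.3 CPM in the labelled libraries and to 92.5, 93.4 and 88.3 CPM in controls. Among the 7 histone genes tested, H1-2 and H2BC12 fell by 0.55 and 0.40 on the log2 scale, H4C8 rose by 0.89, and 4 did not pass. The median log2 fold change of these 7 was 0.06, above 0 where the sum was lower. The part of poly(A) selection in the rRNA and MT-ND6 results was not tested.

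MT-ND6 (ENSG00000198695, chromosome M, 14149 to 14673, minus strand), a complex I subunit and the one light-strand mRNA, stood at 87.2, 94.7 and 116 CPM in the labelled libraries. In the control libraries it stood at 61.9, 73.7 and 70.4 CPM. Every labelled library was above every control, and replicate 3 was the highest of the labelled ones. The rise was 1.45-fold, with a 95% confidence interval from 1.247 to 1.68 (log2 fold change 0.53, SE 0.0990, edgeR adjusted p = 5.58e-04). Of all genes tested, 14.9% had a higher log2 fold change.

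MT-ND5 (chromosome M, 12337 to 14148, plus strand), the complex I subunit whose gene ends where that of MT-ND6 ends on the other strand, stood at 523, 559 and 675 CPM in the labelled libraries. Controls held 599.9, 550.0 and 555 CPM, so the groups overlapped. Its fold was 1.03 with a 95% confidence interval from 0.911 to 1.17 (edgeR adjusted p = 0.678). Within a library, MT-ND6 stood at 0.167, 0.169 and 0.172 counts for each count of MT-ND5 in the labelled libraries, against 0.103, 0.134 and 0.127 in controls. The sources used here give no strand setting for the counting, and without strand, RNA from opposite strands of this stretch cannot be told apart.

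**Figure D2:**
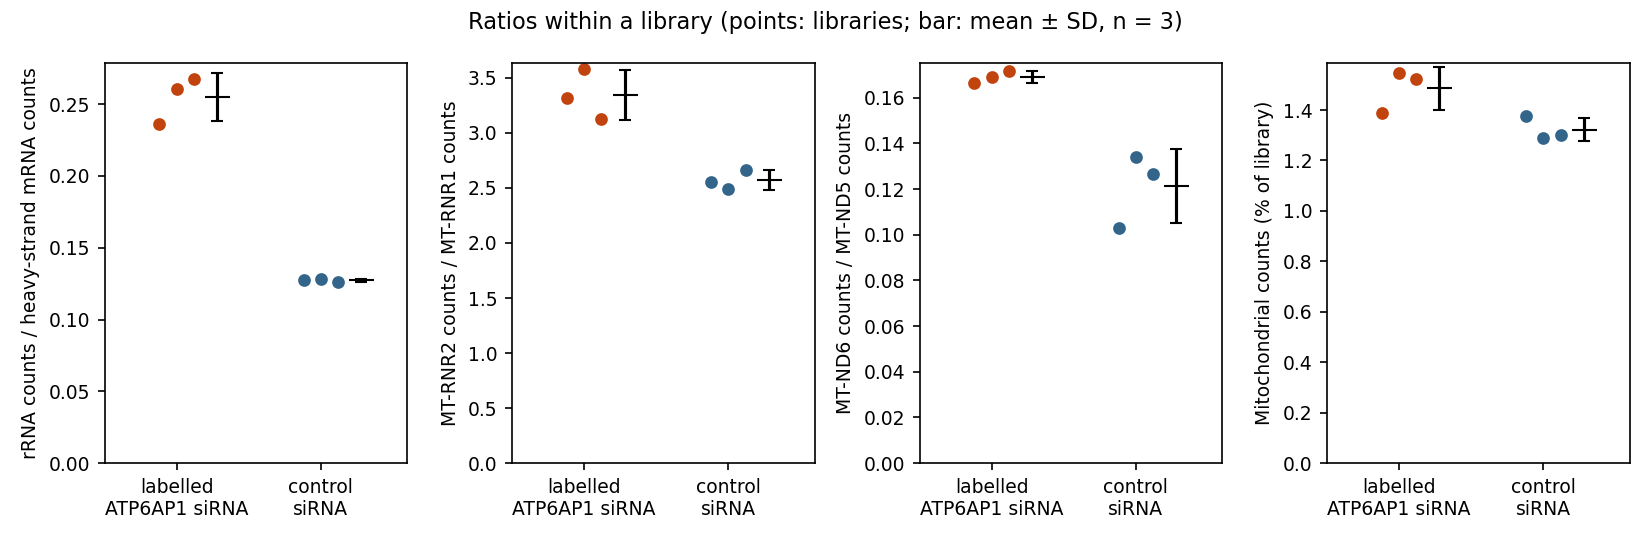
Ratios of counts within each library, for rRNA over heavy-strand mRNA, MT-RNR2 over MT-RNR1 and MT-ND6 over MT-ND5, and the mitochondrial percentage of all counts; points are libraries, and the bar gives the mean ± SD of 3. In each panel the 3 ATP6AP1 siRNA-labelled libraries lie above the 3 control libraries, with rRNA over mRNA at 0.236 to 0.268 against 0.126 to 0.128.

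Whether members responded unlike each other was tested on 4 pairs of genes, as the log2 ratio of their counts in a library, with a two-sided exact permutation test whose smallest p with 3 libraries against 3 is 0.1. MT-RNR2 over MT-CO1 was 1.08 higher in the labelled libraries, at -0.62 ± 0.0517 against -1.70 ± 0.0571 in controls (SD, n = 3 each, exact p = 0.1). MT-ND6 over MT-ND5 was 0.49 higher and MT-RNR2 over MT-RNR1 0.38 higher (exact p = 0.1 for each). These 3 differences had no overlap between groups and reached the smallest p the design allows, which is 0.133 after Benjamini-Hochberg adjustment over the 4 pairs and does not pass 0.05. MT-ND1 over MT-CYB, genes at the start and the end of the heavy-strand mRNAs, differed by 0.15 (exact p = 0.3, adjusted p = 0.3).

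The 12 heavy-strand mRNAs were lower by little or not at all. MT-ND3, MT-CYB, MT-ND4, MT-CO3 and MT-ATP6 fell, and the other 7 did not pass, 5 of them with negative and 2 with positive log2 fold changes. MT-ND3, a complex I subunit, stood at 241, 213 and 234 CPM in the labelled libraries, against 282, 332 and 285 CPM in controls. It was 23.3% lower, with a 95% confidence interval of the fold from 0.687 to 0.856 (log2 fold change -0.38, SE 0.0732, edgeR adjusted p = 6.93e-04). The labelled libraries lay below all controls, and control replicate 2 was the highest. A log2 fold change lower than that of MT-ND3 was found in 20.3% of all genes tested. Whether MT-ND3 fell by more than the other mRNAs was not tested.

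MT-CYB, the cytochrome b of complex III, stood at 855, 946 and 869 CPM in the labelled libraries and 1038, 999 and 1003 CPM in controls, 12.1% lower (log2 fold change -0.19, edgeR adjusted p = 0.0131). MT-ND4, of complex I, stood at 1653, 1887 and 1815 CPM in the labelled libraries and 2016, 1996 and 1986 CPM in controls, 10.7% lower (edgeR adjusted p = 0.0293). In both genes the controls lay close together and above all labelled libraries, of which replicate 1 was the lowest. MT-CO3, of complex IV, stood at 920.3, 988 and 941 CPM against 1067, 1056 and 1050.4 CPM in controls, 10.2% lower (edgeR adjusted p = 0.0229). MT-ATP6, of ATP synthase, stood at 505, 534 and 495 CPM against 569.7, 561 and 564 CPM in controls, 9.50% lower (edgeR adjusted p = 0.0357).

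The calls of these decreases depended on the scaling and on which libraries were kept, except that of MT-ND3. With library size alone in place of composition factors, the median log2 fold change of all genes tested moved by 0.14, and 54.3% of them passed, 36.5% higher and 17.8% lower. Under it 4 mitochondrial genes passed, and 1 of the 12 heavy-strand mRNAs was lower, MT-ND3 at -0.25, and their median was 0.0056. There 6 of the 12 had positive log2 fold changes, among them MT-ND1, MT-CO1, MT-CO2 and MT-ND4L, which were negative in the main test. The number of mitochondrial genes called lower went to 1 without control replicate 1 and to 2 without control replicate 2. It was also 2 without ATP6AP1 siRNA-labelled replicate 1. Calls over all genes tested were 7312, 6954 and 7879 in these runs, against 8193 in the main test. With any replicate left out, the log2 fold change was -0.17 to -0.12 in MT-ATP6 and -0.18 to -0.13 in MT-CO3. It was -0.20 to -0.11 in MT-ND4 and -0.23 to -0.15 in MT-CYB. MT-ATP6 passed in none of these runs (edgeR adjusted p = 0.0519 to 0.111). The 3 increases passed under every alternative run, including a test against a fold of 1.2, which 30.2% of all genes tested passed and no mitochondrial mRNA but MT-ND6.

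Of the mRNAs that did not pass, MT-CO1, the catalytic subunit of cytochrome c oxidase, stood at 3072, 3563 and 3496 CPM in the labelled libraries. Controls held 3944, 3451 and 3544 CPM. The groups overlapped, and the fold of 0.926 had a 95% confidence interval from 0.835 to 1.03 (edgeR adjusted p = 0.195). MT-CO2, which carries a copper centre of the same complex, stood at 1267, 1422 and 1325 CPM against 1526, 1405 and 1429 CPM in controls (edgeR adjusted p = 0.108).

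MT-ND2, of complex I, stood at 495, 552 and 564 CPM in the labelled libraries, against 612, 569 and 607 CPM in controls. Its groups did not overlap, yet it missed the threshold (log2 fold change -0.15, edgeR adjusted p = 0.0587), which it passed without ATP6AP1 siRNA-labelled replicate 3 (edgeR adjusted p = 0.0263). MT-ND1 stood at 888, 834 and 845 CPM against 856, 887 and 888 CPM in controls, with a fold of 0.976 and a 95% confidence interval from 0.902 to 1.06. Missing the threshold does not show that these members were alike in both groups: the intervals of MT-CO1 and MT-ND2 (0.821 to 0.990) hold the fold called in MT-CYB, 0.879, and that of MT-ND1 does not.

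Each of MT-ND4L and MT-ATP8 shares an mRNA with the gene that follows it and overlaps that gene. The overlaps are shown because a read in them fits both genes (GRCh38, chrM:8515-8584 and chrM:10748-10778, plus strand, overlap in capitals). The first is 46 bases long and the second 7.
MT-ATP8 and MT-ATP6: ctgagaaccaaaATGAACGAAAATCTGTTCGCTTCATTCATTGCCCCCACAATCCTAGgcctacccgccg
MT-ND4L and MT-ND4: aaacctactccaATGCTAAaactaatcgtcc

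Although they share an mRNA, the members of each pair were counted at unequal levels per length. MT-ATP8 stood at 0.115, 0.116 and 0.164 of the per-kb level of MT-ATP6 in the labelled libraries, against 0.0915, 0.123 and 0.114 in controls. MT-ND4L stood at 0.423, 0.402 and 0.373 of the per-kb level of MT-ND4 in the labelled libraries, against 0.370, 0.415 and 0.355 in controls. The sources used here do not say how reads in an overlap were assigned. Between groups MT-ATP8 (17.6, 18.9 and 24.6 CPM in labelled libraries, 15.8, 20.9 and 19.6 CPM in controls) did not pass, at a log2 fold change of 0.12 (edgeR adjusted p = 0.467). MT-ND4L (151, 163 and 146 CPM against 161, 178 and 152 CPM in controls) did not pass either (log2 fold change -0.10, edgeR adjusted p = 0.276).

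**Figure D3:**
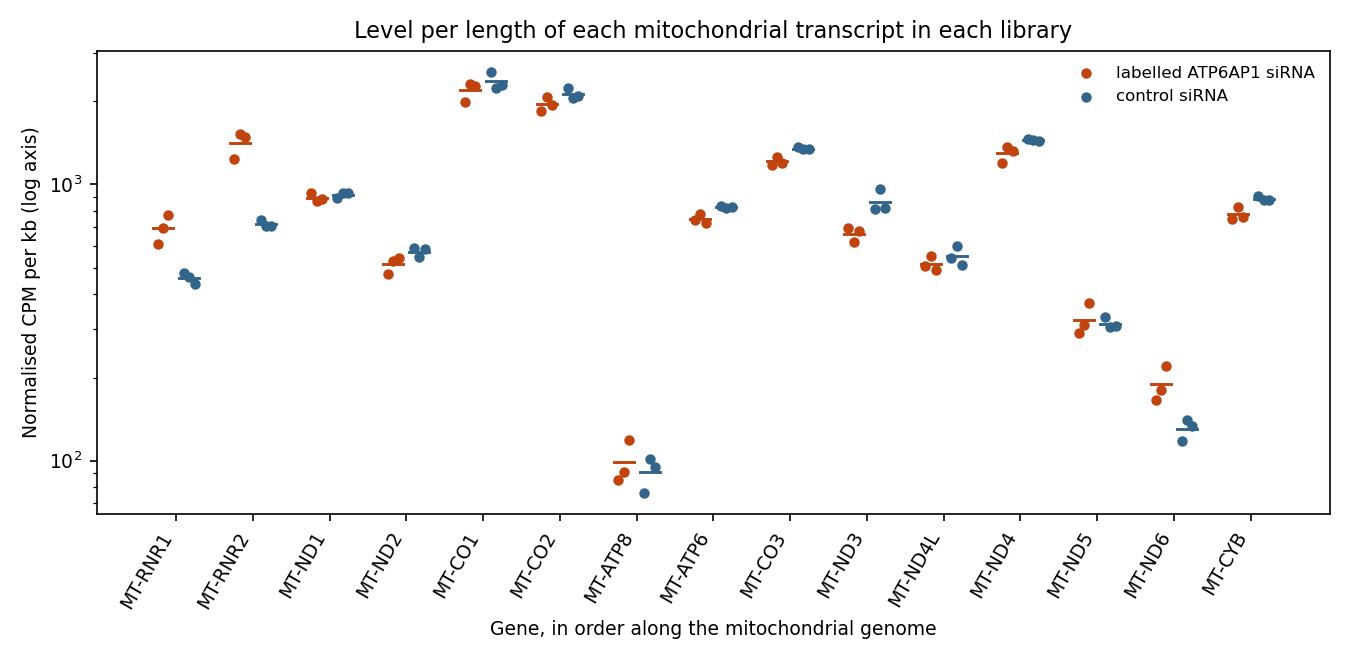
Level per length of each mitochondrial transcript, as normalised CPM per kb on a log axis, in gene order along the mitochondrial genome; points are libraries, lines are means of 3, with ATP6AP1 siRNA-labelled libraries to the left of controls. Heavy-strand mRNAs run from MT-ATP8 at 98.5 and 90.7 to MT-CO1 at 2190 and 2365 CPM per kb in labelled and control libraries, and both rRNAs and MT-ND6 stand higher in the labelled ones.

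Levels per length, as counted, differed 22.2-fold among the heavy-strand mRNAs in the labelled libraries and 26.1-fold in controls, with MT-ATP8 the lowest. MT-ATP6, which shares an mRNA with MT-ATP8, stood at 751 and 830 CPM per kb in labelled and control libraries. The range thus includes a difference within a shared mRNA. MT-CO1 (2190 ± 173 and 2365 ± 170 CPM per kb in labelled and control libraries; SD, n = 3 each) and MT-CO2 (1957 ± 115 and 2125 ± 93.1 CPM per kb) were the highest, and their SDs overlapped. MT-ND4 and MT-CO3 followed at 1295 ± 87.0 and 1212 ± 44.4 CPM per kb in the labelled libraries and at 1451 ± 11.1 and 1349 ± 11.1 CPM per kb in controls. MT-ND5 was the lowest after MT-ATP8, at 323 ± 43.8 CPM per kb in the labelled libraries and 314 ± 15.1 CPM per kb in controls. MT-ND6 lay below it, at 189 ± 28.5 and 131 ± 11.6 CPM per kb.

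Grouped by complex, the 7 complex I mRNAs had 1 rise (MT-ND6), 2 falls and 4 that did not pass, and the 3 complex IV mRNAs had 1 fall. Grouped by their annotated ends, 4 of the 6 mRNAs with part of a stop codon fell, against 1 of the 6 other heavy-strand mRNAs. The medians of the log2 fold change in these groups were -0.16 and -0.10. The 1 that fell among the others was MT-ATP6. Its last annotated base is also the first of MT-CO3, so its place in the grouping is uncertain. That grouping was made with the values known and no test was run on it. In the main test, 26.7% of all genes tested were called higher and 26.6% lower. With library size alone, where 17.8% of all genes tested were lower, MT-ND3 was the only heavy-strand mRNA called lower. Against a fold of 1.2 none was, where 14.6% of all genes tested were lower.

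As a share of all counts, the mitochondrial genome took 1.39, 1.55 and 1.52% in the labelled libraries, against 1.37, 1.29 and 1.30% in controls. All labelled libraries were above all controls, the nearest pair by a narrow margin. The share of the rRNAs was 0.300 ± 0.0316% and 0.149 ± 0.00550% in labelled and control libraries (SD, n = 3 each), and that of the heavy-strand mRNAs 1.18 ± 0.0536% and 1.17 ± 0.0410%, which overlapped. Mitochondrial mRNAs held 1.212 ± 0.0556% of protein-coding counts in the labelled libraries and 1.195 ± 0.0416% in controls.

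Copies of mitochondrial DNA lie in the nuclear genome, and some members match them over long stretches. Of the 50-base windows of each gene, 50.6% in MT-CO1, 46.7% in MT-ATP6, 43.6% in MT-ND2, 43.6% in MT-RNR1 and 25.6% in MT-ND1 occurred exactly in the nuclear chromosomes of GRCh38, and these 5 genes held fractional counts in all 6 libraries. Shared windows and fractional counts did not go together throughout: the share was 30.9% in MT-CO3, with fractional counts in 1 library, and 29.0% in MT-CO2, with whole counts in all. It was 15.7% in MT-RNR2 and 19.96% in MT-ND6, whose counts were also whole, and 0% in MT-ND3 and MT-ND4L. Members with shared windows are uncertain to that extent. Of the 22 nuclear copies listed, 4 were tested and none passed, at edgeR adjusted p = 0.296 to 0.967, and none had an unadjusted p under 0.05. Without ATP6AP1 siRNA-labelled replicate 1, 1 nuclear copy passed. MTATP6P1, the most counted, stood at 37.4, 45.4 and 39.4 CPM in the labelled libraries and 34.3, 44.4 and 41.4 CPM in controls. MTCO1P12 stood at 5.36 ± 1.71 and 4.43 ± 0.405 CPM in labelled and control libraries (SD, n = 3 each), and MTND1P23 and MTND6P3 were under 1 CPM.

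The nuclear genes that transcribe the mitochondrial genome were examined next. Of 10 tested genes of mitochondrial transcription, 4 rose, 1 fell and 5 did not pass. Over all genes tested, 26.7% passed higher and 26.6% lower, the shares beside which this and the later lists stand. TFAM, which packages mitochondrial DNA and activates its promoters, stood at 135, 140 and 151 CPM in the labelled libraries, against 116, 116 and 107 CPM in controls (log2 fold change 0.33, edgeR adjusted p = 6.98e-04). MTERF1, the factor that binds within MT-TL1 in the boundary shown above, stood at 20.5, 24.4 and 26.1 CPM in the labelled libraries, against 16.1, 15.6 and 16.1 CPM in controls (log2 fold change 0.57, edgeR adjusted p = 2.92e-04). Its relatives MTERF4 and MTERF2 rose by 0.32 and 0.43 on the log2 scale. POLRMT, the mitochondrial RNA polymerase, stood at 39.6, 36.1 and 28.03 CPM against 36.3, 40.3 and 43.5 CPM in controls and did not pass (log2 fold change -0.21, edgeR adjusted p = 0.127). The gene that fell was TFB1M, an rRNA methyltransferase, by 0.33. The median over the list was 0.16, against -0.0043 over all genes tested.

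Genes of mitochondrial RNA processing and modification had 13 of 25 tested members higher, 1 lower and 11 that did not pass (median log2 fold change 0.19). ALKBH1, a nucleic acid demethylase that acts on mitochondrial tRNA, and MRM3, which methylates the large mitochondrial rRNA, rose by 0.82 and 0.70 on the log2 scale (edgeR adjusted p = 3.50e-06 and 3.91e-06). NSUN3 and NSUN4, cytosine methyltransferases of mitochondrial tRNA and of the small rRNA, rose by 0.64 and 0.48. MTPAP, the mitochondrial poly(A) polymerase, stood at 21.5, 19.6 and 24.4 CPM in the labelled libraries, against 14.95, 15.9 and 13.8 CPM in controls (log2 fold change 0.55, edgeR adjusted p = 4.94e-04). The member that fell was PRORP, the nuclease subunit of mitochondrial RNase P, which frees the 5′ ends of tRNAs from the precursors, at 25.4, 28.9 and 22.7 CPM in the labelled libraries against 39.0, 40.0 and 36.7 CPM in controls (log2 fold change -0.59, edgeR adjusted p = 1.15e-04). TRMT10C, a partner of PRORP in RNase P, rose by 0.19, and HSD17B10, the other partner, and ELAC2, which cuts tRNA 3′ ends, did not pass (log2 fold changes -0.14 and -0.09, edgeR adjusted p = 0.0651 and 0.334). These last 3 were named after their values were seen.

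In mitochondrial RNA stability and decay, 7 of 15 tested genes rose, 1 fell and 7 did not pass (median log2 fold change 0.07). REXO2, the exonuclease that degrades the shortest RNA fragments in mitochondria, stood at 67.0, 66.6 and 74.3 CPM in the labelled libraries, against 110, 114 and 107 CPM in controls (log2 fold change -0.67, SE 0.0643, edgeR adjusted p = 2.19e-06). SUPV3L1, the helicase of the mitochondrial degradosome, rose by 0.46, while its partner PNPT1, the RNA-degrading phosphorylase, had 0.07 and did not pass (edgeR adjusted p = 0.418). PDE12, which removes poly(A) tails in mitochondria, and FASTKD5, which acts on mRNA ends that no tRNA marks, rose by 0.38 and 0.29. LRPPRC, which stabilises the heavy-strand mRNAs and their tails, stood at 160, 171 and 177 CPM in the labelled libraries, against 149, 143 and 148 CPM in controls (log2 fold change 0.20, edgeR adjusted p = 0.0101). SLIRP, its binding partner, did not pass (log2 fold change -0.12, edgeR adjusted p = 0.329, and 0.01 with library size alone).

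Among 19 tested genes of mitochondrial DNA replication and the nucleoid, 7 rose, 2 fell and 10 did not pass. The list median was -0.04, and 0.10 with library size alone. MGME1, a nuclease of mitochondrial DNA maintenance, rose by 0.71, TOP3A, a topoisomerase that separates the circles, by 0.63 and EXOG, a mitochondrial nuclease, by 0.82 on the log2 scale. POLG, the catalytic subunit of the mitochondrial DNA polymerase, rose by 0.43 (edgeR adjusted p = 1.80e-04) and TWNK, the replicative helicase, by 0.48 (32.5 ± 2.00 and 23.4 ± 0.731 CPM in labelled and control libraries, SD, n = 3 each, edgeR adjusted p = 2.01e-04). TK2, a mitochondrial thymidine kinase, and MPV17, an inner membrane protein, fell by 0.27 and 0.21. Copies of mitochondrial DNA per cell are not measured by these libraries.

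Regulators of mitochondrial biogenesis had 3 of 7 tested members higher and none lower. The 3 were GABPA, GABPB2 and GABPB1, subunits of the nuclear respiratory factor GABP, with log2 fold changes of 0.56, 0.55 and 0.40 (edgeR adjusted p = 1.24e-04, 8.70e-04 and 0.00221). PPARGC1A, PPARGC1B and ESRRG averaged under 1 CPM in both groups and were not tested. Mitochondrial translation factors had 3 members higher, 2 lower and 8 that did not pass, of 13 tested. The initiation factors MTIF3 and MTIF2 fell by 0.58 and 0.42, whereas TACO1, a translational activator of MT-CO1, OXA1L, which inserts the products into the inner membrane, and MTRF1, a release factor, rose by 0.29, 0.23 and 0.32. The median of that list was -0.02, and 0.11 with library size alone.

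**Figure D4:**
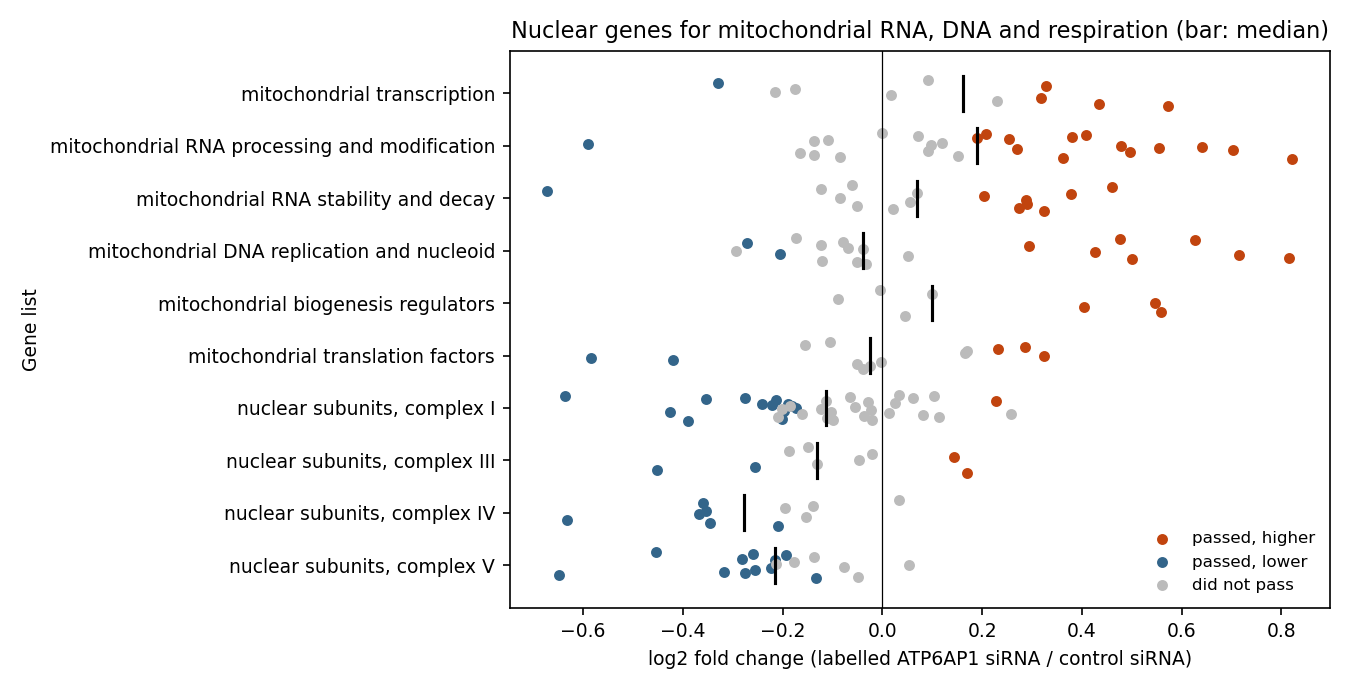
log2 fold changes, ATP6AP1 siRNA-labelled over control libraries, of nuclear genes in 10 lists tied to the mitochondrial genome; points are tested genes, coloured by call, and the bar is the list median. Processing and modification genes had 13 of 25 higher, and subunits of complexes IV and V had 6 of 10 and 11 of 17 lower. Over all genes tested, 26.7% were called higher and 26.6% lower. The complex V count fell to 2 with library size alone and to 5 without some of the libraries.

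The nuclear-encoded partners of the mitochondrial proteins were more often lower than higher. Of 73 tested subunits of complexes I, III, IV and V, 32 fell, 3 rose and 38 did not pass (median log2 fold change -0.18). Over all genes tested, 26.6% were called lower and 26.7% higher. The subunit counts changed with the scaling and with single libraries left out. Over the whole table, 8193 genes passed in the main test. That number was 6863 without ATP6AP1 siRNA-labelled replicate 2, 7312 without control replicate 1 and 6954 without control replicate 2. In complex IV 6 of 10 fell, COX5B by 0.63, COX6B1 by 0.37, COX7C by 0.36 and COX5A by 0.35 on the log2 scale, beside MT-CO3, which fell, and MT-CO1 and MT-CO2, which did not pass. In complex V 11 of 17 fell, ATP5F1C by 0.65, ATP5PO by 0.45, ATP5F1E by 0.32 and ATP5PF by 0.26. In complex I 13 of 37 fell, NDUFV2 by 0.64, NDUFAB1 by 0.43, NDUFS5 by 0.35 and NDUFS6 by 0.28, and NDUFS3 rose by 0.23. In complex III UQCR10 and UQCR11 fell by 0.45 and 0.25, and CYC1 and UQCRC2 rose by 0.17 and 0.14. With library size alone the medians of complexes I and III crossed 0, to 0.02 and 0.0057, and those of complexes IV and V were -0.14 and -0.08. Under that scaling 2 complex V subunits passed in place of 11, and 4 complex IV subunits in place of 6. Without ATP6AP1 siRNA-labelled replicate 2, control replicate 1 or control replicate 2, the number that passed was 6, 6 and 7 in complex I (14 in the main test), 1, 1 and 1 in complex III (4) and 5, 6 and 5 in complex V (11). It was also 7 in complex V without ATP6AP1 siRNA-labelled replicate 1, and 7 in complex III and 9 in complex IV without control replicate 3.

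Of 12 tested genes of the mitochondrial unfolded protein and stress response, 3 rose, 5 fell and 4 did not pass (median log2 fold change -0.11, and 0.02 with library size alone). DDIT3, the stress transcription factor CHOP, rose by 0.92 (81.1 ± 1.58 and 42.9 ± 5.06 CPM in labelled and control libraries, SD, n = 3 each, edgeR adjusted p = 9.73e-07). The chaperonin HSPD1, which folds imported proteins, fell by 0.61 (619 ± 44.7 and 943 ± 14.4 CPM, edgeR adjusted p = 3.08e-06). CHCHD10, a protein of the intermembrane space, and LONP1, the matrix protease that also turns over TFAM, fell by 0.69 and 0.37. The lists of nuclear genes are read against the 53.3% of all genes tested that passed, 26.7% higher and 26.6% lower. No list was tested as a set.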

How the data were processed

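RNA-seq libraries of LX-2 cells (3 labelled ATP6AP1 siRNA, 3 control siRNA; groups from the sample titles) were analysed from 1 deposited table of 32750 Ensembl genes in 6 columns. The authors deposited estimated counts (expected counts) of reads per gene, not normalised, of which 12.3 to 13.9% in a library are not whole. The deposited counts were rounded for the count model, where whole counts had been assumed; unrounded values were an alternative. Tools listed in the submitters' processing notes are HISAT2, featureCounts, Trimmomatic, FastQC and DESeq2, with build GRCh38, without versions or roles; the sources used here give no annotation release, strand setting or rule for multiple mapping. Symbols and coordinates came from GENCODE release 44, which names 28456 of the rows.

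Genes kept by filterByExpr (15372) were compared with edgeR 4.0.16 in R 4.3.3: TMM, group as the term, two-sided quasi-likelihood F test, Benjamini-Hochberg over all genes, threshold 0.05. CPM uses the TMM factors; the biological coefficient of variation was 6.89%. Sums and ratios of members got no p. Alternatives were other scalings (DESeq2 size factors, library size alone, scaling without mitochondrial rows), no filter, 5 CPM in 3 libraries, DESeq2 1.42.0, limma-voom (limma 3.58.1), a replicate block, each replicate left out, a threshold of 0.01, edgeR's glmTreat at a fold of 1.2 and, added after the data were seen, unrounded values and left-out replicates for gene pairs. Members and lists were chosen with earlier results of these data known. Named genes were all members; in each nuclear list up to 4 genes past the test with the lowest adjusted p, plus TFAM, POLRMT, TWNK, MTPAP, LRPPRC, SLIRP and PNPT1; and the 4 nuclear copies with the highest mean count. Others, where named, were chosen after their values were seen.

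Sequences were read from GRCh38 (chromosome M of 16569 bases). Replicates, called independent biological replicates by the submitters, were no copies of each other (chi-square of at least 3.66 per gene). The labels give no batch. Steps were tested on simulated data. Depth sets counting error only.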

Additional observations from a re-analysis of the deposited data

How the results depend on the processing

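The increases of MT-RNR1, MT-RNR2 and MT-ND6 kept their direction and passed under all 17 alternatives, with log2 fold changes of 0.51 to 0.73, 0.92 to 1.11 and 0.40 to 0.67. The number of mitochondrial genes past the test, 8 in the main test, was 4 with library size alone, 5 with the replicate block, 4 at an adjusted p of 0.01 and 3 in the test against a fold of 1.2. Of the 5 called lower, 1, 2, 1 and 0 were left under these settings in that order; in the fold test MT-ND3 had an edgeR adjusted p of 0.0589. With a replicate left out, 4 to 7 genes passed, 1 to 4 of them lower; ATP6AP1 siRNA-labelled replicate 1 and control replicates 1 and 2 each moved the count by over 1.5 times. A stricter threshold or a null of a given fold lowers such counts by construction; the cause of the losses with a replicate left out was not tested, and the cause of the loss with library size alone is the shift of all log2 fold changes by 0.14. Signs reversed with library size alone in MT-ND1 (0.10), MT-CO1 (0.026), MT-CO2 (0.018) and MT-ND4L (0.042), and without ATP6AP1 siRNA-labelled replicate 3 in MT-ATP8 (-0.043) and MT-ND5 (-0.070), which ranged up to 0.22 and 0.12 with another replicate left out; none of these passed under any setting, and the cause was not tested for the last 2. Of the nuclear list members 92 passed, 59 at an adjusted p of 0.01, 35 against a fold of 1.2, 70 with the replicate block and 64 to 99 with a replicate left out; the block took complex I from 14 to 7, complex III from 4 to 1, complex V from 11 to 6 and RNAs without poly(A) tails from 2 to 1. DESeq2 called 9 in complex I. The mitochondrial share of all counts was 1.12-fold higher in the labelled libraries, 1.10-fold to 1.16-fold with a replicate left out; taken as mitochondrial mRNA over protein-coding counts, which leaves out the rRNAs, it was 1.01-fold higher. No difference between gene pairs changed sign with a replicate left out.

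Replicate numbers paired no samples: deviations of same-numbered libraries from their group means correlated at -0.09, -0.03 and -0.10, and no label ties a number to a day or batch. The replicate block gave 7195 calls over all genes against 8193.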
